A study of Homo sapiens with 6 samples.

Results

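The 41 genes described here belong to the integrated stress response and the unfolded protein response. They were chosen by symbol for their known function from the 35322 gene symbols counted, with earlier results of these data known. All 41 passed the filter on low counts that left 16510 genes for testing. They were divided into 3 eIF2-alpha kinases, 19 genes of the ATF4 arm and 19 genes of the XBP1/ATF6 arm, and compared between control 22Rv1 cells and cells with either of 2 knockdowns of the epigenetic reader ZMYND11. In ZM11-kd2, 13 of the 19 ATF4 arm genes were higher than in control and 4 were lower, where 36.5% of all genes tested were higher and 36.9% lower, and CHAC1, VLDLR, SLC7A11 and PSAT1 rose most. In ZM11-kd1, 12 were higher and 5 lower, against 38.2% and 39.8% of all genes, but 6 were higher and 9 lower when libraries were scaled by their totals alone, which put 27.8% of all genes higher and 51% lower. The amino acid transporter SLC7A5 had the largest fall of all members in both knockdowns. The XBP1/ATF6 arm was split in each knockdown, with XBP1, DNAJB9 and PDIA3 higher in both and CANX and PDIA4 lower in both.

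When cells run short of amino acids or haem, or when unfolded proteins collect in the endoplasmic reticulum (ER), kinases phosphorylate the translation initiation factor eIF2-alpha, which lowers general protein synthesis while the transcription factor ATF4 is translated more efficiently. ATF4 then raises genes of amino acid uptake, serine and one-carbon metabolism, and feedback regulators. The ER has further sensors, IRE1-alpha (ERN1), which splices XBP1 mRNA, and ATF6, which is cleaved to release a transcription factor, and both raise chaperones and degradation factors of the ER. Phosphorylation of eIF2-alpha is also a known trigger of stress granule assembly. The counts give mRNA per gene, so they hold neither the phosphorylation of eIF2-alpha, nor the translation of ATF4, nor the spliced form of XBP1.

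22Rv1 is an established human prostate carcinoma line, and its RNA was sequenced without treatment in 6 libraries, comprising 2 of control cells, 2 of ZM11-kd1 and 2 of ZM11-kd2. By label the control cells are WT and the others carry a ZMYND11 knockdown, whereas the study's methods describe lentiviral pLKO.1 shRNA vectors and puromycin selection. The study describes control shRNAs for these sequenced cells, while the labels say only WT and do not tell which shRNA belongs to which knockdown. No label ties the 2 libraries of a group to separate cultures, so the p-values measure the spread between these libraries, which may be technical. The fit used a spread per gene shared by all groups, although the groups differed in it. Between the 2 libraries of a group, chi-square per degree of freedom over most genes tested was 2.36 in control, 3.97 in ZM11-kd1 and 10.7 in ZM11-kd2.

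The libraries held 26844128 to 38193748 counts, and every level below is in CPM (counts scaled to a common library size) after normalization for library composition with edgeR's trimmed mean of M-values (TMM). ZMYND11 itself stood at 141 and 135 CPM in the control libraries, 27.7 and 26.1 in ZM11-kd1 and 21.6 and 22.7 in ZM11-kd2, so every knockdown library lay below both controls, and edgeR's quasi-likelihood test with Benjamini-Hochberg adjustment over all genes, used throughout, gave log2 fold changes of -2.35 ± 0.07 and -2.64 ± 0.07 (standard error, SE; 2 libraries per group). Of the 7 prostate epithelial markers examined, all were detected, summing to 2200 CPM in control libraries, 2410 to 2450 in ZM11-kd1 and 2960 to 2970 in ZM11-kd2. Of the 8 markers of leukocytes, endothelium and fibroblasts, CD3E was at 0 throughout and 4 did not pass the filter on low counts. The 8 summed to 25.6 to 27.4 CPM in control, 77.6 to 78.5 in ZM11-kd1 and 31.7 to 33.7 in ZM11-kd2, nearly all of it from COL1A1, and the part of this in the results below was not tested. Because a library pools many cells, more transcript per cell and more cells with the transcript cannot be told apart.

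DNA elements of the 2 arms were searched in the 250 bases upstream of RefSeq transcription starts (GRCh38.p14), where 36 of the 41 members had an entry and EIF2AK1, PSPH, SHMT2, SLC7A11 and PDIA3 had none. ATF4 is known to bind composite C/EBP-ATF elements, searched as TGATGNAA, while ATF6 with NF-Y binds the ER stress element, searched as CCAAT, then 9 bases, then CCACG. XBP1 binds the unfolded protein response element, searched as TGACGTGG. Both strands were read, and no matches in members overlapped. The ER stress element was found upstream of 7 of 18 XBP1/ATF6 arm genes (CALR, CANX, CRELD2, HSP90B1, HSPA5, PDIA6 and XBP1), none of the 16 ATF4 arm genes with an entry and 0.074% of the 35116 upstream windows in the table. The C/EBP-ATF element was found upstream of 3 of 16 ATF4 arm genes (ASNS, CEBPG and CHAC1) and 1 XBP1/ATF6 arm gene (HERPUD1), against 3.14% of all windows, and TGACGTGG upstream of HYOU1 alone among the members, against 0.612%. A match is a stretch of letters and not a measured binding site.

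The following stretches are shown because the C/EBP-ATF and ER stress elements each stood upstream of genes that moved in different directions, and because HYOU1 alone among the members held the third element. Each is written 5′ to 3′ on the strand of the gene, with the letters of the element in capitals, and positions are counted back from the base before the transcription start. The first 4 carry the C/EBP-ATF element, at -68 to -61 in ASNS (chr7:97872459-97872488, minus strand), -209 to -202 in CHAC1 (chr15:40953251-40953280, plus strand), -42 to -35 in CEBPG (chr19:33373993-33374112, plus strand) and -176 to -169 in HERPUD1 (chr16:56931892-56932011, plus strand). In CHAC1 and HERPUD1 it reads in reverse complement. The stretches of ASNS, CHAC1, CEBPG and, among the next set, CANX precede the RefSeq start used but lie inside the longer gene span given by GENCODE 44.
ASNS: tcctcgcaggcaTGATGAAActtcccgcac
CHAC1: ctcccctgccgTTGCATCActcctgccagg
CEBPG: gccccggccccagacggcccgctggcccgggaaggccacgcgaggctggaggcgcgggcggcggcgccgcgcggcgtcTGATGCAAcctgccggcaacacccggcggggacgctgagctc
HERPUD1: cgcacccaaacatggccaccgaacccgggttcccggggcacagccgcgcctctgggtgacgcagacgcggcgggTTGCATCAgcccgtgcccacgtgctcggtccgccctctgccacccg
The next 4 carry the ER stress element, at -52 to -34 in XBP1 (chr22:28800598-28800682, minus strand), -66 to -48 in HSPA5 (chr9:125241383-125241502, minus strand), -225 to -207 in CALR (chr19:12938359-12938478, plus strand, in reverse complement) and -151 to -133 in CANX (chr5:179698773-179698802, plus strand), where a further match lies outside the stretch shown. HYOU1 (chr11:119057336-119057455, minus strand) holds TGACGTGG at -188 to -181.
XBP1: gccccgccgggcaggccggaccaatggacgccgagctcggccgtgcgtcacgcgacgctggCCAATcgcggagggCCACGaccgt
HSPA5: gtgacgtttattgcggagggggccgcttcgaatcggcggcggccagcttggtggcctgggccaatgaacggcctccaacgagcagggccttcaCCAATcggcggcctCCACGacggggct
CALR: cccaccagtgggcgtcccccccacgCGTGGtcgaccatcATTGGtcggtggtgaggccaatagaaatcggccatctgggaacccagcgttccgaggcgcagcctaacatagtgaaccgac
CANX: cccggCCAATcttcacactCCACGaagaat
HYOU1: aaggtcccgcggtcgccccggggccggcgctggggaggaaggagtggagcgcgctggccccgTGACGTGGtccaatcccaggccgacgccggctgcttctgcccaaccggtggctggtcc
Of the 4 genes with the C/EBP-ATF element, CHAC1, CEBPG and HERPUD1 were higher than control in both knockdowns and ASNS was lower in both, but with library totals in ZM11-kd1 CEBPG turned to -0.16 and HERPUD1 was not called (0.07). Of the genes shown with the ER stress element, XBP1 was higher in both knockdowns, CANX was lower in both, HSPA5 was higher in ZM11-kd2, and CALR moved by no more than 0.12 in either direction with TMM.

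Each arm was first counted. Both knockdowns are compared with the same 2 control libraries, so their results are given side by side. In ZM11-kd1 against control, 78% of all genes tested passed an adjusted p of 0.05 (Benjamini-Hochberg over the 16510 genes), 38.2% higher and 39.8% lower, so a passing gene was the rule and the counts of members are read against these shares. Of the members, 21 of 41 were higher and 15 lower. The ATF4 arm had 12 of 19 higher and 5 lower, with a median log2 fold change of 0.24 beside -0.03 over all genes tested. With library totals these medians were -0.12 and -0.38, with 6 of the arm higher and 9 lower, and after removal of trends with GC content and gene length they were 0.10 and 0.001, with 9 lower. The XBP1/ATF6 arm had 8 higher and 8 lower, with a median of -0.01, and with library totals 4 higher and a median of -0.36. In ZM11-kd2, 73.4% of all genes passed, 36.5% higher and 36.9% lower, against 24 of 41 members higher and 13 lower. There the ATF4 arm had 13 of 19 higher and 4 lower, with a median of 0.76 beside -0.03 over all genes, or 0.59 beside -0.20 with library totals. The XBP1/ATF6 arm had 10 higher and 7 lower, with a median of 0.16, or -0.006 with library totals. Of the 41 members, 16 were higher in both knockdowns (39%, beside 25.6% of all genes) and 11 lower in both (26.8%, beside 27%). With library totals 10 were higher in both (24.4%, beside 18% of all genes) and 12 lower (29.3%, beside 34.7%), and after the GC and length correction 16 were higher (39%, beside 27.1%) and 9 lower (22%, beside 25.7%).

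A change of at least 1.5-fold beside the adjusted p was met by 28.6% of all genes upward and 31.2% downward in ZM11-kd1, and by 6 of 19 ATF4 arm genes upward and 4 downward and 4 of 19 XBP1/ATF6 arm genes upward and 8 downward. In ZM11-kd2 it was met by 23.8% of all genes upward and 27.3% downward, by 11 of 19 ATF4 arm genes upward and 2 downward, and by 4 of 19 XBP1/ATF6 arm genes upward and 2 downward. Small changes and some larger ones moved with the scaling. Library totals in place of TMM shifted the median of all genes to -0.38 in ZM11-kd1 and -0.20 in ZM11-kd2, and the share of calls that were higher from 49% to 35.3% in ZM11-kd1, from 49.8% to 40.8% in ZM11-kd2 and from 50.8% to 61.1% in ZM11-kd2 against ZM11-kd1. All 13 ATF4 arm genes called higher and all 4 called lower in ZM11-kd2 kept their call under each of 14 alternatives, whereas in ZM11-kd1 6 of the 12 higher and 4 of the 5 lower did. In the XBP1/ATF6 arm 6 of the 10 higher and 3 of the 7 lower did in ZM11-kd2, and 4 of the 8 higher and 6 of the 8 lower in ZM11-kd1. Whether this differs from other genes of like size was not tested.

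**Figure D1:**
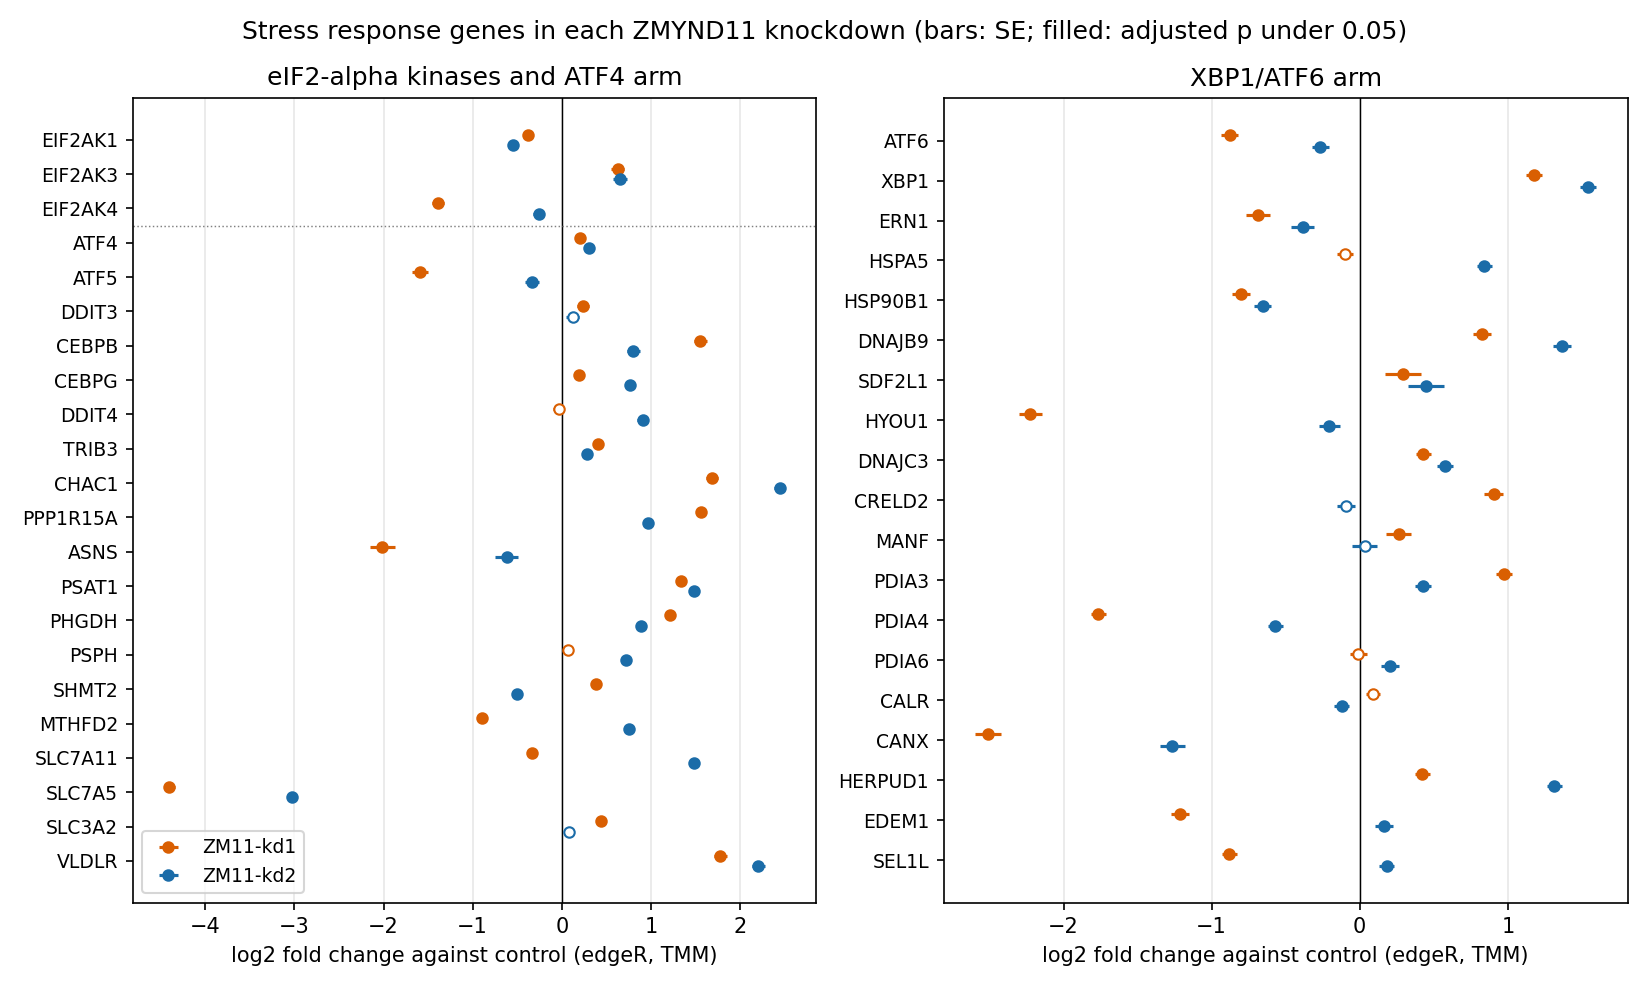
Log2 fold change against control (horizontal axis) of the 3 eIF2-alpha kinases and 19 ATF4 arm genes (left) and 19 XBP1/ATF6 arm genes (right) in ZM11-kd1 and ZM11-kd2, with SE bars. Filled points passed an adjusted p of 0.05 in edgeR's quasi-likelihood test. SLC7A5 lies farthest left at -4.40 and -3.03, and CHAC1 farthest right at 2.44 in ZM11-kd2.

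The kinases did not move together. EIF2AK3, which encodes the ER-resident kinase PERK (chr2:88556741-88691518, minus strand, coordinates from GENCODE 44 on hg38), stood at 24.1 and 25.8 CPM in control, 39.6 and 37.6 in ZM11-kd1 and 40.3 and 38.3 in ZM11-kd2. All 4 knockdown libraries lay above both controls, and the log2 fold changes were 0.63 ± 0.08 (adjusted p = 2.65e-06, with 0.27 by library totals and 1.40 after the GC and length correction) and 0.66 ± 0.08 (adjusted p = 2e-06). EIF2AK4, the amino acid sensor GCN2, went the other way in ZM11-kd1, where it fell by 1.39 ± 0.07 on the log2 scale, and in ZM11-kd2 its value of -0.26 ± 0.06 turned to 0.05 when trends with GC content and gene length were removed. EIF2AK1, the haem-regulated kinase HRI, was lower in both, at -0.38 ± 0.06 and -0.55 ± 0.06, the first -0.73 with library totals and -0.17 after the correction for GC and length. Its libraries ran from 161 to 191 CPM in the knockdowns against 242 and 251 in control.

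Among the transcription factors of the ATF4 arm, ATF4 itself was one of the most abundant members, at 548 CPM per kilobase of its MANE transcript in control. ATF4 (chr22:39519695-39522683, plus strand) stood at 764 and 792 CPM in control, 886 and 907 in ZM11-kd1 and 1015 and 915 in ZM11-kd2. The knockdown libraries lay above both controls, with log2 fold changes of 0.20 ± 0.06 (adjusted p = 0.00428) and 0.31 ± 0.06 (adjusted p = 0.000177), of which the first turned to -0.15 with library totals and -0.39 after the GC and length correction, while the second became 0.14 and 0.17. The call in ZM11-kd1 was also lost without control replicate 1 (0.17, adjusted p = 0.0753). ATF5, a related factor translated under the same control, moved against it. ATF5 (chr19:49928702-49933935, plus strand) stood at 45.5 and 44.6 CPM in control, 15.6 and 14.2 in ZM11-kd1 and 37.8 and 33.5 in ZM11-kd2, and all knockdown libraries lay below both controls. It fell by 1.59 ± 0.09 and 0.34 ± 0.08 on the log2 scale (adjusted p = 3.55e-10 and 0.00161). ATF5 shares 565 bases with NUP62 on the opposite strand, and whether the counting used strand is not given in the sources used here.

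DDIT3, which encodes the pro-apoptotic factor CHOP, changed by little. DDIT3 (chr12:57516588-57521737, minus strand) stood at 96.3 and 104 CPM in control, 113 and 124 in ZM11-kd1 and 117 and 102 in ZM11-kd2, so the ZM11-kd2 libraries overlapped control. The value of 0.24 ± 0.07 in ZM11-kd1 (adjusted p = 0.00763, lost without control replicate 1 or ZM11-kd1 replicate 2, at 0.18 each) turned to -0.12 with library totals and -0.38 after the GC and length correction, and was 0.12 ± 0.07 in ZM11-kd2 (adjusted p = 0.135). In ZM11-kd2 it was called higher without ZM11-kd2 replicate 2 (0.22) and lower after the correction (-0.13). DDIT3 shares 355 bases with the more abundant MARS1 on the opposite strand, so its counts are uncertain. CEBPB, a partner that dimerizes with ATF4 and CHOP, rose in both knockdowns. CEBPB (chr20:50190830-50192668, plus strand) stood at 83.8 and 74.8 CPM in control, 229 and 237 in ZM11-kd1 and 148 and 128 in ZM11-kd2, with log2 fold changes of 1.56 ± 0.07 and 0.80 ± 0.07 (adjusted p = 7.75e-11 and 1.6e-07) and no overlap with control. The GC and length correction lowered the first to 0.34. CEBPG, another partner of ATF4, was 0.77 ± 0.05 in ZM11-kd2 (adjusted p = 5.09e-09) and 0.19 ± 0.05 in ZM11-kd1, the latter -0.16 with library totals and not called without ZM11-kd1 replicate 1 (0.16).

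CHAC1, TRIB3, PPP1R15A and DDIT4 are regulators that ATF4 is known to induce. CHAC1, which degrades glutathione, had the largest rise of all members in ZM11-kd2. CHAC1 (chr15:40952962-40956512, plus strand) stood at 30.2 and 28.4 CPM in control, 92.4 and 96.4 in ZM11-kd1 and 165 and 155 in ZM11-kd2. The 3 groups did not overlap, and CHAC1 was 3.22-fold and 5.44-fold above control (log2 fold changes 1.69 ± 0.06 and 2.44 ± 0.06, adjusted p = 8.8e-12 and 4.97e-13, the first 0.75 after the GC and length correction). PPP1R15A encodes GADD34, the stress-induced subunit of the phosphatase that reverses eIF2-alpha phosphorylation. PPP1R15A (chr19:48872212-48876059, plus strand) stood at 139.7 and 145 CPM in control, 415 and 426 in ZM11-kd1 and 288 and 269 in ZM11-kd2. Its log2 fold changes were 1.56 ± 0.05 and 0.97 ± 0.05 (adjusted p = 4.11e-12 and 8.04e-10), higher in ZM11-kd1 than in ZM11-kd2, with no overlap between any groups.

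TRIB3, a pseudokinase that restrains ATF4 and CHOP, changed less. TRIB3 (chr20:362835-397559, plus strand) stood at 315 and 309.8 CPM in control, 412 and 419 in ZM11-kd1 and 385 and 376 in ZM11-kd2, all knockdown libraries above both controls. Its value of 0.41 ± 0.05 in ZM11-kd1 was 0.06 and not called with library totals and turned to -0.23 after the GC and length correction, and that in ZM11-kd2 was 0.28 ± 0.05 (adjusted p = 0.00011, and 0.11 with library totals). DDIT4, the inhibitor of mTORC1 signalling known as REDD1, was separated by knockdown. DDIT4 (chr10:72273919-72276036, plus strand) stood at 110.3 and 109 CPM in control, 104 and 109.5 in ZM11-kd1 and 215 and 195 in ZM11-kd2. It overlapped control in ZM11-kd1 (-0.03 ± 0.06, adjusted p = 0.622, and called lower at -0.39 with library totals and -0.89 after the GC and length correction) and rose by 0.91 ± 0.06 in ZM11-kd2 (adjusted p = 4.5e-09).

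Among the enzymes of amino acid and one-carbon metabolism, the first steps of serine synthesis rose in both knockdowns. PSAT1, the phosphoserine aminotransferase (chr9:78297125-78330093, plus strand), stood at 529 and 547 CPM in control, 1350 and 1369 in ZM11-kd1 and 1521 and 1484 in ZM11-kd2. PHGDH, the phosphoglycerate dehydrogenase that opens the pathway (chr1:119648411-119744218, plus strand), stood at 340.5 and 347, 788 and 802 and 655 and 623 CPM. In both genes every knockdown library lay above both controls, and the log2 fold changes were 1.34 ± 0.05 and 1.48 ± 0.05 for PSAT1 and 1.21 ± 0.05 and 0.89 ± 0.05 for PHGDH (largest adjusted p = 9.43e-10). PSPH, the phosphatase of the last step, was 0.06 ± 0.05 in ZM11-kd1 (adjusted p = 0.272, turning to -0.29 with library totals) and 0.72 ± 0.05 in ZM11-kd2 (adjusted p = 1.39e-08).

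ASNS, the asparagine synthetase that is a textbook ATF4 target, fell. ASNS (chr7:97851677-97872542, minus strand) stood at 12.2 and 11.7 CPM in control, 3.12 and 2.77 in ZM11-kd1 and 7.50 and 8.03 in ZM11-kd2, and no groups overlapped. It fell by 2.01 ± 0.14 and 0.62 ± 0.12 on the log2 scale (adjusted p = 7.08e-09 and 0.000461). The level is uncertain, since only 1464 counts were assigned to it over 6 libraries and a lncRNA in GENCODE 44 that is no row of the counts, ENSG00000284707, shares 2415 bases with it on the same strand.

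The mitochondrial one-carbon enzymes differed between the knockdowns. MTHFD2 (chr2:74186172-74217565, plus strand), a mitochondrial dehydrogenase of the folate pathway, stood at 324 and 334 CPM in control, 175 and 178 in ZM11-kd1 and 562 and 552 in ZM11-kd2. It was below control in ZM11-kd1 (-0.90 ± 0.05, adjusted p = 4.91e-10, and -0.27 after the GC and length correction) and above it in ZM11-kd2 (0.76 ± 0.05, adjusted p = 4.31e-09). SHMT2, which makes glycine from serine in mitochondria, went the opposite way, at 0.38 ± 0.06 in ZM11-kd1 and -0.50 ± 0.06 in ZM11-kd2, and the first was no longer called with library totals (0.03) or after the GC and length correction (0.10). SHMT2 libraries held 520 to 533 CPM in control, 667 to 704 in ZM11-kd1 and 355 to 388 in ZM11-kd2.

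Of the transporters and receptors, SLC7A5, the light chain of the large neutral amino acid transporter LAT1, was the member that changed most. SLC7A5 (chr16:87830023-87869507, minus strand) stood at 3082 and 2983 CPM in control, 146 and 141 in ZM11-kd1 and 357 and 388 in ZM11-kd2. It was 21.2-fold lower in ZM11-kd1 and 8.15-fold lower in ZM11-kd2 (log2 fold changes -4.40 ± 0.06 and -3.03 ± 0.06, adjusted p = 2.52e-15 and 3.93e-14), and the groups were far apart. Per kilobase of MANE transcript its mean level fell from 666 CPM to 31.4 and 81.7, while that of SLC3A2, the heavy chain it pairs with, was 761 in control, 1030 in ZM11-kd1 and 806 in ZM11-kd2. The log2 fold changes of SLC3A2 were 0.44 ± 0.06 (adjusted p = 4.89e-06, and 0.09, not called, with library totals) and 0.08 ± 0.06 (adjusted p = 0.203, turning to -0.09 with library totals).

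SLC7A11, the cystine-glutamate exchanger xCT that shares the SLC3A2 heavy chain, was split by knockdown. SLC7A11 (chr4:138164097-138242349, minus strand) stood at 212 and 211 CPM in control, 167 and 168 in ZM11-kd1 and 587 and 596 in ZM11-kd2. It rose by 1.49 ± 0.05 in ZM11-kd2 (adjusted p = 4.52e-12), while the value of -0.34 ± 0.05 in ZM11-kd1 (adjusted p = 1.94e-05) turned to 0.26 after the GC and length correction. VLDLR, a lipoprotein receptor that ATF4 signalling is known to raise, was higher in every knockdown library. VLDLR (chr9:2621182-2660056, plus strand) stood at 18.4 and 17.7 CPM in control, 60.4 and 63.8 in ZM11-kd1 and 82.5 and 84.3 in ZM11-kd2, which made it 3.44-fold and 4.62-fold higher (log2 fold changes 1.78 ± 0.07 and 2.21 ± 0.07, adjusted p = 1.07e-11 and 2.46e-12).

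**Figure D2:**
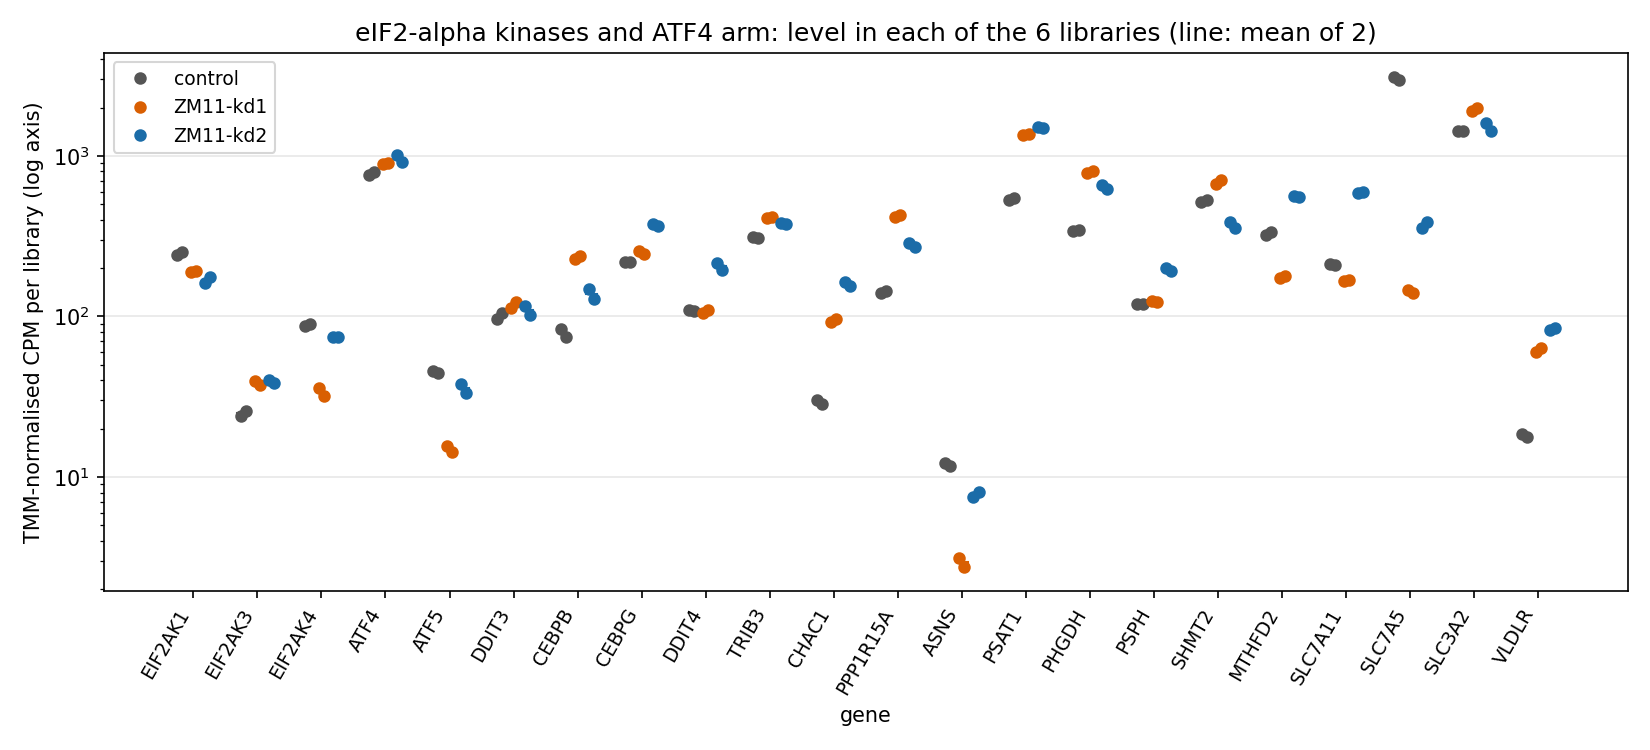
TMM-normalised CPM (vertical log axis) of the 3 eIF2-alpha kinases and 19 ATF4 arm genes in each of the 6 libraries, with points for libraries and short lines for the means of 2. The 2 libraries of a group nearly coincide, SLC7A5 drops furthest below control, and VLDLR, CHAC1 and PPP1R15A stand higher in every knockdown library.

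In the XBP1/ATF6 arm, the sensors and their factor moved apart. XBP1 (chr22:28794555-28800597, minus strand), the factor made by IRE1-alpha splicing, stood at 294 and 304 CPM in control, 676 and 675 in ZM11-kd1 and 913 and 827 in ZM11-kd2. All knockdown libraries lay above both controls, with log2 fold changes of 1.18 ± 0.06 and 1.54 ± 0.06 (adjusted p = 9.44e-11 and 1.19e-11). ERN1, the IRE1-alpha kinase and endonuclease (chr17:64039080-64130819, minus strand), stood at 47.3 and 48.0 CPM in control, 29.6 and 29.6 in ZM11-kd1 and 33.9 and 39.1 in ZM11-kd2. The log2 fold changes of ERN1 were -0.69 ± 0.08 in ZM11-kd1, which became -0.09 and was not called after the GC and length correction, and -0.39 ± 0.08 in ZM11-kd2, which turned to 0.05 under it. ATF6 (chr1:161766298-161977574, plus strand), the sensor cleaved in the Golgi, stood at 128 and 126 CPM in control, 70.4 and 67.7 in ZM11-kd1 and 101 and 109.7 in ZM11-kd2. ATF6 was lower in ZM11-kd1 (-0.88 ± 0.06, adjusted p = 3.81e-09, and -0.17 after the GC and length correction), and its value of -0.27 ± 0.06 in ZM11-kd2 turned to 0.05 after that correction.

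The 8 chaperones and cochaperones differed among themselves. HSPA5, the ER chaperone BiP that is the usual readout of ER stress, rose in ZM11-kd2. HSPA5 (chr9:125234853-125241382, minus strand) stood at 839 and 859 CPM in control, 790.5 and 794 in ZM11-kd1 and 1579 and 1465 in ZM11-kd2. The log2 fold change in ZM11-kd2 was 0.84 ± 0.05 (adjusted p = 2.48e-09), and the value of -0.10 ± 0.05 in ZM11-kd1 (adjusted p = 0.0931, and called lower at -0.45 with library totals) turned to 0.27 after the GC and length correction. In ZM11-kd1 HSPA5 was also called lower with only the groups compared (-0.10, adjusted p = 0.00772) and at a minimum of 10 counts per library (-0.14, adjusted p = 0.0228). The same held without either ZM11-kd2 library (-0.09 and -0.10). HSP90B1, the ER member of the HSP90 family known as GRP94, did not follow HSPA5. HSP90B1 (chr12:103930107-103953931, plus strand) stood at 1237 and 1282 CPM in control, 716 and 730.2 in ZM11-kd1 and 848 and 752 in ZM11-kd2, every knockdown library below both controls. It was lower in ZM11-kd2 (-0.66 ± 0.06, adjusted p = 1.36e-07), and in ZM11-kd1 -0.80 ± 0.06, or -0.09 and not called after the GC and length correction.

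DNAJB9, the ERdj4 cochaperone and a known XBP1 target, rose in both knockdowns. DNAJB9 (chr7:108569867-108574850, plus strand) stood at 40.1 and 42.1 CPM in control, 72.8 and 73.0 in ZM11-kd1 and 109 and 103 in ZM11-kd2, with no overlap and log2 fold changes of 0.83 ± 0.06 and 1.37 ± 0.06 (adjusted p = 1.3e-08 and 8.54e-11). SDF2L1, an ER protein that works with BiP and DNAJB11, had a wide spread. SDF2L1 (chr22:21642302-21644299, plus strand) stood at 25.8 and 20.1 CPM in control, 28.4 and 27.8 in ZM11-kd1 and 34.9 and 27.6 in ZM11-kd2. Its value of 0.29 ± 0.12 in ZM11-kd1 turned to -0.06 with library totals and -0.94 after the GC and length correction, and that of 0.45 ± 0.12 in ZM11-kd2 became 0.22 and was not called after it. The call in ZM11-kd1 was also lost without control replicate 2 (0.12), and without either ZM11-kd1 library (0.28 and 0.31), and that in ZM11-kd2 without control replicate 2 (0.28).

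HYOU1, a large ER chaperone that acts as nucleotide exchange factor for BiP, fell by 2.22 ± 0.08 in ZM11-kd1 (adjusted p = 4.12e-12), from 334 and 328 CPM in control to 75.4 and 66.3. In ZM11-kd2 the value of -0.20 ± 0.07 became -0.06 and was not called after the GC and length correction, and the call was lost without control replicate 1 (-0.19), control replicate 2 (-0.22) or ZM11-kd2 replicate 1 (-0.10). DNAJC3, the p58IPK cochaperone, was 0.58 ± 0.05 in ZM11-kd2 (adjusted p = 1.29e-07) and 0.43 ± 0.05 in ZM11-kd1, the latter 0.07 and not called with library totals. CRELD2, an ER stress-induced factor that assists folding, was 0.90 ± 0.06 in ZM11-kd1 (adjusted p = 5.39e-09) and -0.09 ± 0.06 in ZM11-kd2 (adjusted p = 0.199). In ZM11-kd2 it was called lower with library totals (-0.26) and without ZM11-kd2 replicate 1 (-0.19). MANF, a secreted ER stress-induced factor, was 0.26 ± 0.08 in ZM11-kd1, turning to -0.09 with library totals and not called without control replicate 1 (0.20) or ZM11-kd1 replicate 2 (0.21), and 0.03 ± 0.08 in ZM11-kd2 (adjusted p = 0.734), where its libraries overlapped control. Single libraries decided the call of MANF in ZM11-kd2, which was lower without ZM11-kd2 replicate 1 (-0.13) and higher without replicate 2 (0.18), and it was also lower after the GC and length correction (-0.16).

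The disulfide isomerases and lectin chaperones, which fold glycoproteins, went in several directions. PDIA3, the ERp57 isomerase, was higher in both knockdowns at 0.97 ± 0.05 and 0.43 ± 0.05 (adjusted p = 4.61e-10 and 4.81e-06). PDIA4 fell by 1.76 ± 0.05 and 0.57 ± 0.05, from 349.9 and 352 CPM in control to 104 and 103 in ZM11-kd1 and 242 and 230.4 in ZM11-kd2. PDIA6 was -0.01 ± 0.06 in ZM11-kd1 (adjusted p = 0.898, and called lower at -0.36 with library totals) and 0.20 ± 0.06 in ZM11-kd2, the latter 0.03 and not called with library totals, nor without control replicate 2 (0.20). CANX, the membrane-bound lectin calnexin, fell by 2.51 ± 0.09 and 1.27 ± 0.08 (adjusted p = 4.25e-12 and 4.91e-09), with 574 and 563 CPM in control, 102 and 97.0 in ZM11-kd1 and 208 and 264 in ZM11-kd2. CALR, its soluble relative calreticulin (chr19:12938578-12944489, plus strand), stayed near control. CALR stood at 1139 and 1162 CPM in control, 1210 and 1235 in ZM11-kd1 and 1075 and 1039 in ZM11-kd2. Its values were 0.09 ± 0.05 in ZM11-kd1 (adjusted p = 0.113), turning to -0.27 with library totals, and -0.12 ± 0.05 in ZM11-kd2 (adjusted p = 0.0351, and 0.0875 with the replicate number as a block). In ZM11-kd1 CALR was called higher with only the groups compared (0.09, adjusted p = 0.0166) and without either ZM11-kd2 library (0.09 each). The CALR call in ZM11-kd2 was lost on leaving out either control library (-0.14 and -0.11) or either ZM11-kd1 library (-0.12 each). Several members share exonic bases with a gene on the opposite strand, among them PDIA6 with ATP6V1C2 (1033 bases), HSP90B1 with UQCC6 (805), MTHFD2 with SLC4A5 (1324) and EIF2AK1 with AIMP2 (532), so their counts are uncertain to that extent.

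The last 3 members act in ER-associated degradation, which sends misfolded proteins to the proteasome. HERPUD1, a membrane component of the degradation complex, rose most. HERPUD1 (chr16:56932142-56944864, plus strand) stood at 249 and 252 CPM in control, 335 and 337 in ZM11-kd1 and 638 and 607 in ZM11-kd2. Its log2 fold changes were 0.42 ± 0.05, which was 0.07 and not called with library totals, and 1.31 ± 0.05 (adjusted p = 1.93e-11). EDEM1, a lectin that hands mannose-trimmed proteins to degradation, was -1.21 ± 0.06 in ZM11-kd1 (adjusted p = 1.69e-10) and 0.16 ± 0.06 in ZM11-kd2 (adjusted p = 0.0196), the latter turning to -0.0063 with library totals. The EDEM1 call in ZM11-kd2 was lost without control replicate 1 (0.15) or control replicate 2 (0.18), with the DESeq2 Wald test (adjusted p = 0.0661) and with at least 10 counts required per library (0.12, adjusted p = 0.0592). SEL1L, the adaptor of the HRD1 ubiquitin ligase, was -0.88 ± 0.05 in ZM11-kd1 (adjusted p = 8.58e-10, and -0.29 after the GC and length correction) and 0.18 ± 0.05 in ZM11-kd2 (adjusted p = 0.0049), and the latter was 0.01 and not called with library totals, nor without control replicate 1 (0.16).

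**Figure D3:**
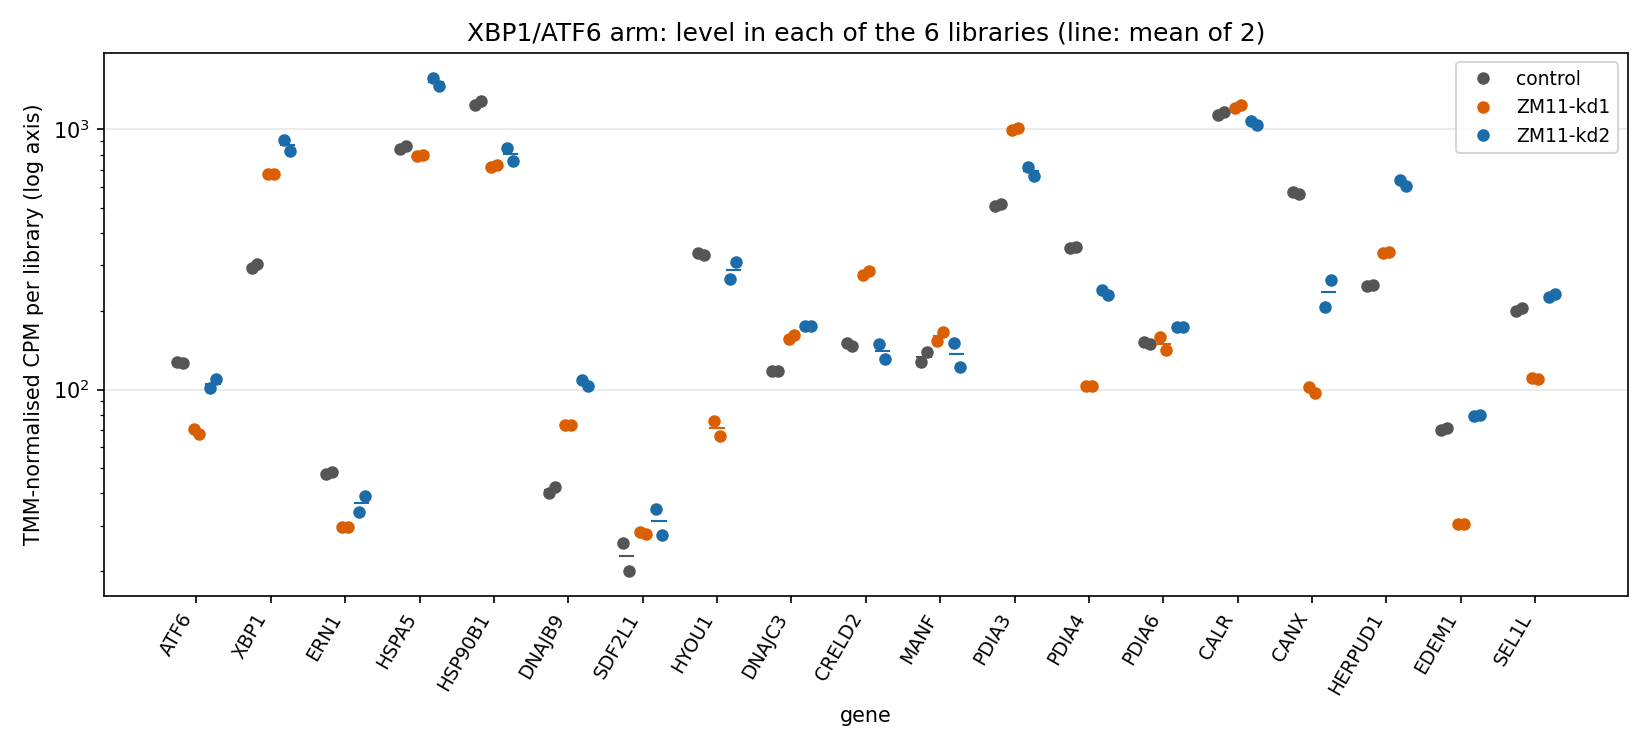
TMM-normalised CPM (vertical log axis) of the 19 XBP1/ATF6 arm genes in each of the 6 libraries, with points for libraries and short lines for the means of 2. XBP1 and DNAJB9 stand higher in every knockdown library, HSPA5 and HERPUD1 highest in ZM11-kd2, and CANX, HYOU1 and PDIA4 lowest in ZM11-kd1.

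The knockdowns were then compared with each other. Of all genes tested, 68.8% differed, 34.9% higher and 33.8% lower in ZM11-kd2, and 21.9% were higher and 22.8% lower by at least 1.5-fold. Of the 41 members, 26 were higher and 11 lower in ZM11-kd2. The ATF4 arm had 11 higher and 6 lower, with a median of 0.43 beside 0.02 over all genes, and the XBP1/ATF6 arm had 14 higher and 4 lower, with a median of 0.36. By at least 1.5-fold, 8 of 19 were higher and 3 lower in the ATF4 arm, and 8 higher and 1 lower in the XBP1/ATF6 arm. The largest differences were in HYOU1 (2.02 ± 0.08, adjusted p = 3.99e-11), SLC7A11 (1.82 ± 0.05, adjusted p = 2.87e-12) and MTHFD2 (1.66 ± 0.05, adjusted p = 7.04e-12). All 3 members of ER-associated degradation were higher in ZM11-kd2, HERPUD1 by 0.89 ± 0.05, EDEM1 by 1.38 ± 0.06 and SEL1L by 1.06 ± 0.05 (0.61 after the GC and length correction). Of 9 further genes of ER-associated degradation, outside the members, 4 were higher and 3 lower in ZM11-kd2 than in ZM11-kd1. Also higher were HSPA5 by 0.94 ± 0.05, DDIT4 by 0.94 ± 0.06 (1.58 after that correction), EIF2AK4 by 1.13 ± 0.07, ATF5 by 1.25 ± 0.09 and SLC7A5 by 1.38 ± 0.06.

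The members lower in ZM11-kd2 than in ZM11-kd1 included CRELD2 (-0.998 ± 0.06, adjusted p = 4.12e-09), SHMT2 (-0.88 ± 0.06, adjusted p = 4.62e-09), PPP1R15A (-0.59 ± 0.05, adjusted p = 1.65e-07, and -0.19 after the GC and length correction) and PDIA3 (-0.54 ± 0.05, adjusted p = 4.83e-07, and -0.36 with library totals). CEBPB was -0.75 ± 0.07, turning to 0.24 after the GC and length correction, and TRIB3 was -0.13 ± 0.05 (not called on leaving out either control or either ZM11-kd1 library), turning to 0.06 with library totals and 0.43 after that correction. ATF4 was 0.11 ± 0.06 (adjusted p = 0.108) and reached an adjusted p under 0.05 with library totals (0.29) and after the correction (0.56). EIF2AK3 did not differ beyond its spread with TMM (0.03 ± 0.07, adjusted p = 0.75). It was called higher with library totals (0.21) and lower after the correction (-0.31). ZMYND11 itself was -0.28 ± 0.07 (adjusted p = 0.00265), -0.10 and not called with library totals, and -0.70 after the correction.

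**Figure D4:**
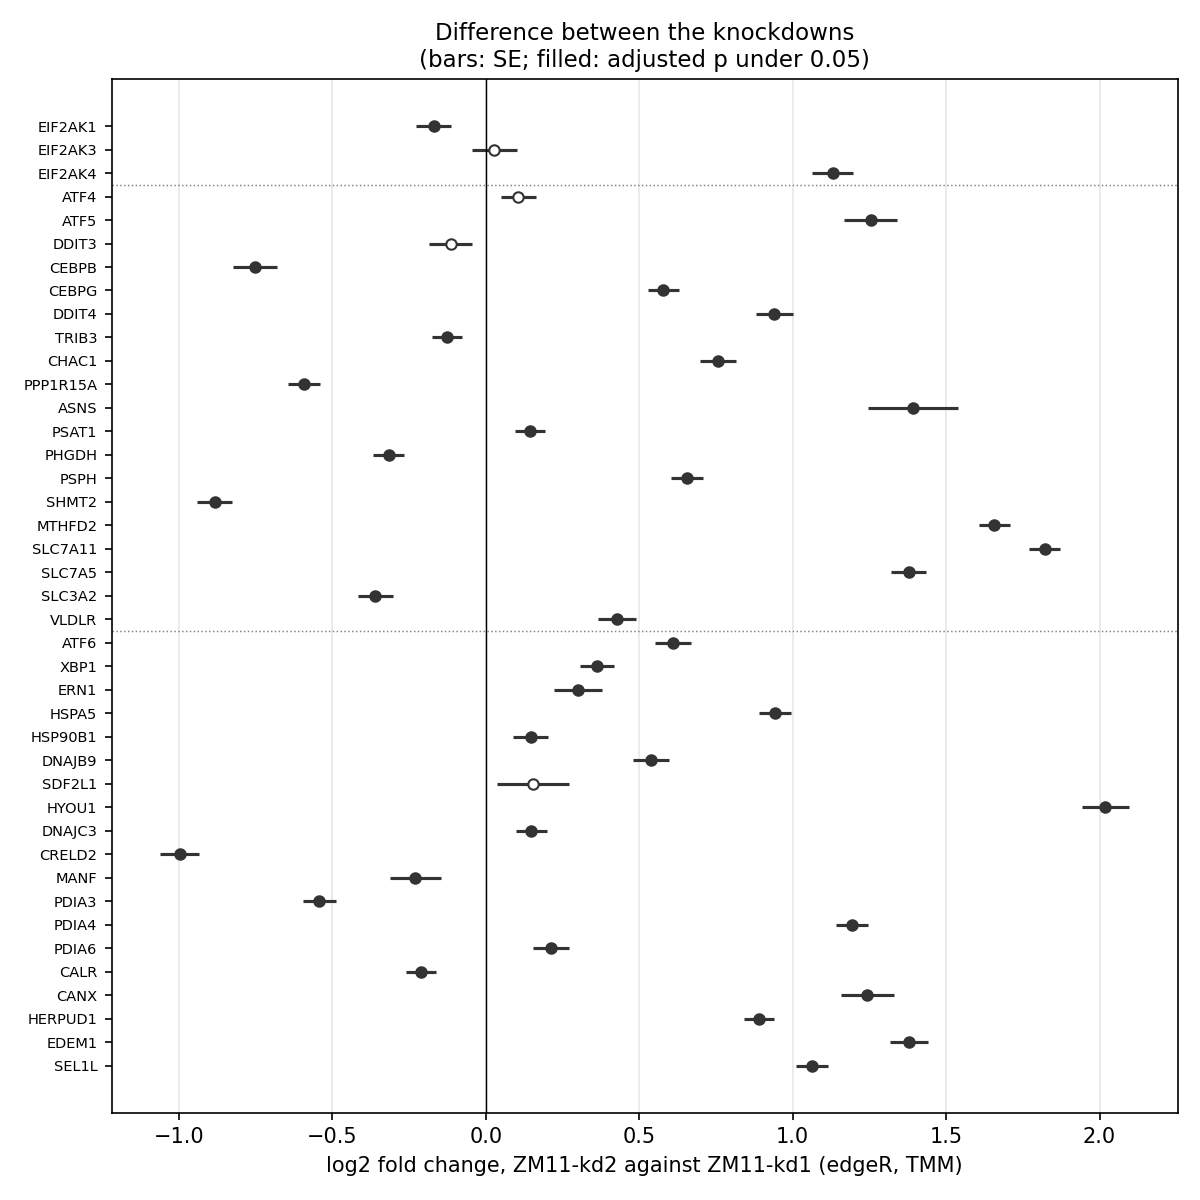
Log2 fold change of ZM11-kd2 against ZM11-kd1 (horizontal axis) for the 41 members, with SE bars; filled points passed an adjusted p of 0.05. HYOU1 at 2.02 and SLC7A11 at 1.82 lie farthest right, and CRELD2 at -0.998 farthest left.

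**Figure D5:**
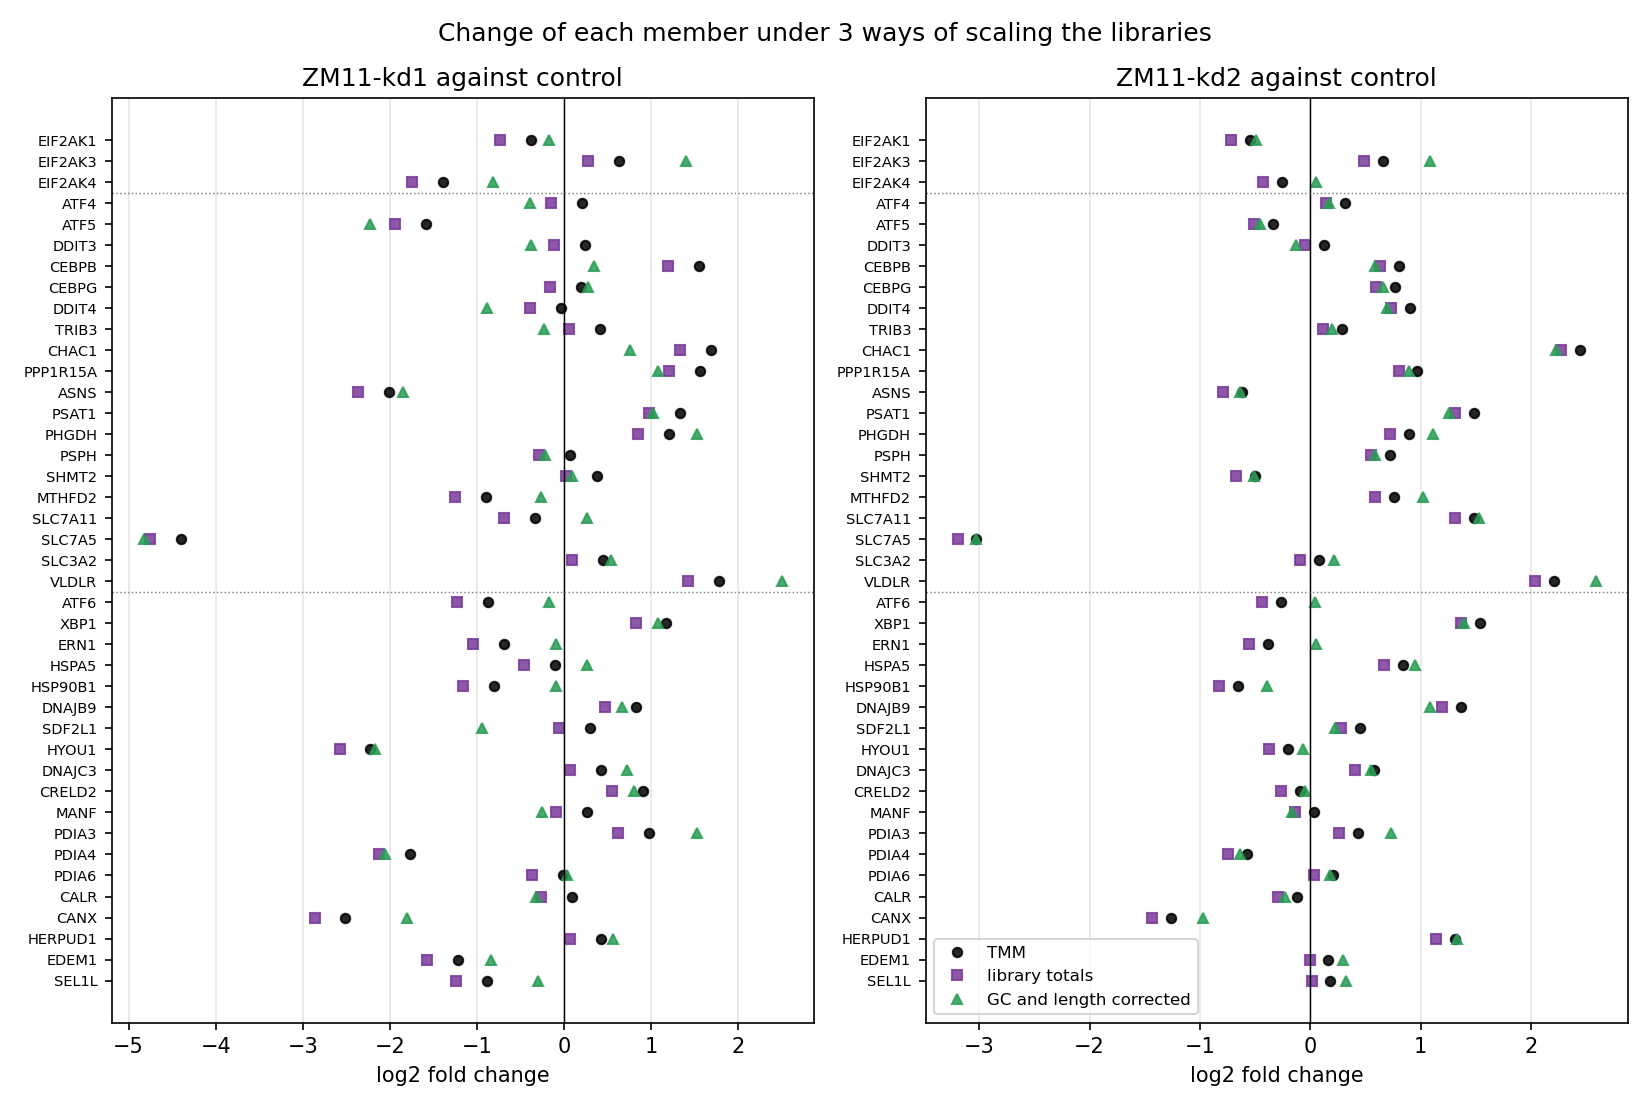
Log2 fold change against control (horizontal axis) of the 41 members with TMM (circles), library totals (squares) and with GC and length trends removed (triangles), for ZM11-kd1 (left) and ZM11-kd2 (right). In ZM11-kd1 the symbols of ATF4, DDIT3 and SDF2L1 fall on both sides of 0, while SLC7A5, CANX, CHAC1 and VLDLR stay on 1 side in both knockdowns.

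The plot of the 3 scalings shows how far each member depended on them. ATF4 in ZM11-kd1 ran from -0.39 to 0.20 and CHAC1 from 0.75 to 1.69, while CHAC1 in ZM11-kd2 ran from 2.23 to 2.44. In ZM11-kd1 the correction also moved EIF2AK4 to -0.81 and PDIA3 to 1.53, and library totals lowered PDIA3 to 0.62, DNAJB9 to 0.47 and CRELD2 to 0.55. Both ERN1 and SLC7A11 were lower still in ZM11-kd1 with library totals, at -1.04 and -0.69, and DNAJC3 rose to 0.72 with the correction. In ZM11-kd2 library totals gave EIF2AK4 -0.43, ATF5 -0.51, ATF6 -0.44, HYOU1 -0.37, CALR -0.29, SDF2L1 0.28 and PDIA3 0.26, and the correction gave EIF2AK3 1.09, PDIA3 0.73, HSP90B1 -0.39, CALR -0.22, EDEM1 0.30, SEL1L 0.32 and SLC3A2 0.21. Over 14 alternatives, which also left out each library in turn, XBP1 stayed between 0.82 and 1.20 in ZM11-kd1 and between 1.37 and 1.62 in ZM11-kd2, and CANX between -2.86 and -1.81 and between -1.44 and -0.97. SLC7A5 stayed between -4.83 and -4.38 in ZM11-kd1 and between -3.20 and -2.97 in ZM11-kd2.

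Further genes of the same pathways were counted from longer lists, to be read beside the 38.2% of all genes higher and 39.8% lower in ZM11-kd1, and 36.5% higher and 36.9% lower in ZM11-kd2. Of 32 other ATF4-linked genes, 11 were higher and 15 lower in ZM11-kd1 (median log2 fold change -0.15), and 21 were higher and 6 lower in ZM11-kd2 (median 0.49). The 12 aminoacyl-tRNA synthetases among them, which charge tRNAs with amino acids, had 7 higher and 4 lower in ZM11-kd1 and 9 higher and 2 lower in ZM11-kd2. The 7 amino acid and one-carbon enzymes had 0 higher and 5 lower in ZM11-kd1 and 3 higher and 3 lower in ZM11-kd2. For the 5 amino acid transporters these were 0 and 3 in ZM11-kd1 and 5 and 0 in ZM11-kd2. For the 8 stress-induced factors they were 4 and 3 in ZM11-kd1 and 4 and 1 in ZM11-kd2. Among genes that moved in 1 direction in both knockdowns by the test, the largest rises by mean were in NUPR1, a stress-induced chromatin protein (2.09 ± 0.09 and 0.87 ± 0.09), GDF15, a secreted stress cytokine (0.50 ± 0.05, 0.14 with library totals and turning to -0.55 after the GC and length correction, and 2.24 ± 0.06), and the seryl-tRNA synthetase SARS1 (1.47 ± 0.05 and 1.23 ± 0.05). GDF15 stood at 505 and 507 CPM in control, 717 and 712 in ZM11-kd1 and 2500 and 2289 in ZM11-kd2. The largest falls by mean among such genes were in ALDH1L2, a mitochondrial folate enzyme (-2.13 ± 0.07 and -1.45 ± 0.06), the isoleucyl-tRNA synthetase IARS1 (-1.005 ± 0.05 and -0.76 ± 0.05, or -0.23 and -0.30 after the correction) and the tRNA exporter XPOT (-1.30 ± 0.05 and -0.41 ± 0.05).

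Against the same shares of all genes, of 10 genes of eIF2, its exchange factor eIF2B and their kinase and phosphatase, 6 were higher and 2 lower in ZM11-kd1 and 8 higher and 1 lower in ZM11-kd2. Among those with 1 direction in both, the largest rises by mean were in the eIF2B subunits EIF2B2 (1.37 ± 0.08 and 1.20 ± 0.08) and EIF2B4 (0.70 ± 0.06, or 0.34 with library totals, and 0.60 ± 0.06) and the eIF2 subunit EIF2S2 (1.28 ± 0.05 and 0.90 ± 0.05). EIF2AK2, the double-stranded RNA sensor PKR, was -0.49 ± 0.07 in ZM11-kd1, -0.85 with library totals and turning to 0.17 after the GC and length correction, and -1.04 ± 0.07 in ZM11-kd2. Beside those shares, of 27 other XBP1/ATF6-linked genes, 9 were higher and 13 lower in ZM11-kd1 (median -0.07), and 14 higher and 9 lower in ZM11-kd2 (median 0.16). By the same rule the largest rises were in the translocon subunit SEC61B (2.42 ± 0.09 and 1.24 ± 0.08), the ER oxidase ERO1A (1.36 ± 0.06 and 0.71 ± 0.06) and the ubiquitin ligase SYVN1 (0.83 ± 0.06, or 0.48 with library totals, and 0.75 ± 0.06), and the largest falls were in DERL3 (-3.88 ± 0.63 and -2.33 ± 0.51), a degradation factor counted 86 and 61 times in control, 0 and 10 in ZM11-kd1 and 18 and 15 in ZM11-kd2, the glycoprotein folding sensor UGGT1 (-2.62 ± 0.09 and -1.54 ± 0.08) and MBTPS2, the protease that cleaves ATF6 (-1.34 ± 0.08 and -0.71 ± 0.08, the first -0.78 after the correction). DERL3 in ZM11-kd1 was -2.81 without the library at 0 counts and -9.31 without the other, a fitted value against 0 counts that sets no bound, and in ZM11-kd2 it was not called by the DESeq2 Wald test (adjusted p = 0.153).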

How the data were processed

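The 6 libraries were made from 22Rv1 cells, whose extract is labelled total RNA, and the study's methods name poly(A) selection or removal of ribosomal RNA without saying which was used here. The deposited values are raw counts per gene symbol, which the authors made from reads checked with FastQC 0.11.9, trimmed with AdapterRemoval, aligned to hg38 with STAR 2.7.9a and handled with SAMtools, and the submitters' processing notes also name HTSeq 0.13.5. The annotation and the use of strand are not given in the sources used here. Groups were taken from the sample labels, and 0 columns were left without a sample. Of 35322 genes, 16510 passed filterByExpr. All 3 groups were fitted together in edgeR 4.0.16 (R 4.3.3, limma 3.58.1) with TMM and the quasi-likelihood test (3 residual degrees of freedom), two-sided, with Benjamini-Hochberg adjustment over all genes tested. A gene was called at an adjusted p under 0.05, and SE is the absolute log2 fold change over the square root of F.

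The 41 members, the longer lists and the genes named from them were chosen with earlier results of these data known. All members were named, and from each longer list the 3 largest mean rises and falls among genes with the same call in ZM11-kd1 and ZM11-kd2. Alternatives were DESeq2 size factors, library totals, GC content and gene length trends removed as edgeR offsets (lowess, span 0.3), omission of the filter, a minimum of 10 counts per library, the DESeq2 1.42.0 Wald test, a replicate block, only the groups compared, and each library left out, with a 1.5-fold minimum for counts of genes. Leaving out a library leaves 1 in its group, which was assumed to vary like the others. Levels per kilobase used MANE transcripts of GENCODE 44, in which no MANE length was found for XBP1. All 41 members were matched there by gene name. With library totals of 26844128 to 38193748 counts, 1 count corresponded to 0.0280 to 0.0338 CPM.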

Additional observations from a re-analysis of the deposited data

Results flagged for a closer look

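In 5 of the 41 members the knockdowns were called in opposite directions against the shared control libraries. Genes picked in this way can be expected to differ between the knockdowns. A call of that difference in edgeR, also in refits of the same counts, is therefore no further support. Of ZM11-kd2 against ZM11-kd1, the log2 difference was 1.66 for the folate enzyme MTHFD2, 1.82 for the cystine exchanger SLC7A11, 1.38 for the degradation lectin EDEM1 and 1.06 for the ligase adaptor SEL1L, all lower than control in ZM11-kd1 and higher in ZM11-kd2. It was -0.88 for the serine hydroxymethyltransferase SHMT2, which was higher in ZM11-kd1 and lower in ZM11-kd2. All 5 differences kept their direction and stayed past the threshold under each of the 14 alternatives. The opposite directions against control did not hold in all of them. SLC7A11 in ZM11-kd1 became 0.26 after the GC and length correction, SHMT2 in ZM11-kd1 was not called with library totals (0.03) or after that correction (0.10), and with library totals EDEM1 in ZM11-kd2 became -0.0063 and SEL1L 0.01, not called. EDEM1 in ZM11-kd2 was also not called with the DESeq2 Wald test (adjusted p = 0.0661) or at a minimum of 10 counts per library (adjusted p = 0.0592). MTHFD2 kept its direction and its call in both knockdowns under all 14, although its value in ZM11-kd1 became -0.27 after the correction. Of all genes tested, 4.73% were lower in ZM11-kd1 and higher in ZM11-kd2 (4 members, 9.76%) and 4.37% the reverse (1 member, 2.44%).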

How the results depend on the processing

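With 2 libraries per group, calls of small changes rest on the scaling, and so do those of some larger changes. In ZM11-kd1 the GC and length correction took HSP90B1 from -0.80 to -0.09 and ERN1 from -0.69 to -0.09, neither then called. CEBPB there fell from 1.56 to 0.34 and stayed called. The log2 fold changes that changed sign in ZM11-kd1 were, with library totals in place of TMM, ATF4 -0.15, DDIT3 -0.12, CEBPG -0.16, PSPH -0.29, SDF2L1 -0.061, MANF -0.092 and CALR -0.27, and after the GC and length correction ATF4 -0.39, DDIT3 -0.38, TRIB3 -0.23, PSPH -0.22, SLC7A11 0.26, HSPA5 0.27, SDF2L1 -0.94, MANF -0.25, PDIA6 0.031, CALR -0.32, GDF15 -0.55 and EIF2AK2 0.17. In ZM11-kd2 they were, with library totals, DDIT3 -0.048, SLC3A2 -0.089, MANF -0.14 and EDEM1 -0.0063, after the correction EIF2AK4 0.054, DDIT3 -0.13, ATF6 0.047, ERN1 0.053 and MANF -0.16, and with at least 10 counts in every library MANF -0.0072. In ZM11-kd2 against ZM11-kd1 they were, with library totals, EIF2AK1 0.015, DDIT3 0.069 and TRIB3 0.057, and after the correction EIF2AK3 -0.31, DDIT3 0.25, CEBPB 0.24, TRIB3 0.43, HSP90B1 -0.30, DNAJC3 -0.16, MANF 0.085 and CALR 0.098. The cause was not tested.

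Leaving out 1 library at a time changed the sign of DDIT4 (-0.066 to 0.0049) and PDIA6 (-0.091 to 0.073) in ZM11-kd1, of SLC3A2 (-0.0018 to 0.17), CRELD2 (-0.19 to 0.0054) and MANF (-0.13 to 0.18) in ZM11-kd2, and of EIF2AK3 (-0.020 to 0.069) and SDF2L1 (-0.034 to 0.32) between the knockdowns. It moved no count of members in either arm by more than 1.5 times. Counts of calls moved more with the scaling and the fold rule. In ZM11-kd1 the ATF4 arm had 6 higher and 9 lower with library totals, 9 lower after the GC and length correction and 6 higher at 1.5-fold, and the XBP1/ATF6 arm 4 higher with library totals and 4 at 1.5-fold. At 1.5-fold in ZM11-kd2 the ATF4 arm had 2 lower and the XBP1/ATF6 arm 4 higher and 2 lower. Between the knockdowns 7389 of all genes passed at 1.5-fold, with 3 lower in the ATF4 arm and 8 higher and 1 lower in the XBP1/ATF6 arm, which had 2 lower with library totals.

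Replicate numbers did not pair the libraries, since the correlations of the differences between replicates 1 and 2 were 0.006, -0.026 and -0.044 between groups. With the replicate number as a block, 12545 genes were called in ZM11-kd1, 11688 in ZM11-kd2 and 10978 between the knockdowns. The arms had 12 higher and 5 lower and 8 and 8 in ZM11-kd1, 13 and 4 and 10 and 6 in ZM11-kd2, and 10 and 5 and 13 and 4 between the knockdowns. The block ended the call of CALR in ZM11-kd2 and those of TRIB3, PSAT1 and HSP90B1 between the knockdowns.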
